A study of Mus musculus with 8 samples.

Results

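Chemokines of the CXC class are small secreted proteins that steer leukocytes along a gradient. The members described here were 8 ligand genes, namely Cxcl1, Cxcl2, Cxcl3, Cxcl5, Ppbp, Pf4, Cxcl14 and Cxcl16. They were listed by symbol, and the list was chosen by the measured difference between BMDC-fer and BMDC, in which Ppbp was among the largest rises. All 8 were found among the 55487 gene rows of the count table, and all 8 were among the 15411 genes that passed a filter on low counts. Mouse bone marrow of WT genotype was cultured with GM-CSF for 10 days to give dendritic cells (BMDC). The mice were female C57/bl6 animals of 6 to 8 weeks (C57BL/6J in the study's methods). The group called BMDC received no treatment. The group called BMDC-fer was co-cultured for 4 h with Jurkat cells, an established human T-cell leukemia line, that had been killed with 0.5 µM ML162 for 14 h. ML162 inhibits the lipid peroxide reductase GPX4 and so triggers ferroptosis, an iron-dependent death by lipid peroxidation. The BMDC that carried dead-cell cargo were then sorted. Whether the untreated BMDC were sorted is not given in the sources used here. Sorting, contact with dead cells and uptake thus cannot be told apart. Any ML162 or human RNA carried over with the cargo could reach BMDC-fer alone, and its part was not tested. Cultures of this kind also hold cells that are not dendritic cells. Each group had 4 libraries of poly(A) RNA, numbered replicates 1 to 4. The study calls them independently collected, and neither it nor the labels say whether each came from its own animal or culture. The p-values below measure the spread between these libraries.

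The ligands fall into 3 functional kinds. Cxcl1, Cxcl2, Cxcl3, Cxcl5 and the processed product of Ppbp carry the Glu-Leu-Arg motif ahead of the first cysteines and draw neutrophils through the receptor Cxcr2. Pf4, platelet factor, lacks that motif and binds heparin and other glycosaminoglycans. Ppbp and Pf4 are known above all as products of megakaryocytes and platelet granules, and both are also made by some myeloid cells. Cxcl14 is a broadly expressed homeostatic chemokine of epithelia and immature myeloid cells. Cxcl16 is a membrane-anchored ligand of Cxcr6 that also serves as a scavenger receptor and can be shed. Cxcl1, Cxcl2 and Cxcl3 are the classical NF-kB targets of the class, and their mRNAs are short-lived because AU-rich elements in the 3′ untranslated region recruit decay factors.

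Total counts lay between 39326672 and 50532209 per library. A floor of 3 counts was worth 0.0594 to 0.0763 CPM (counts scaled to the size of the library) by total counts alone. The CPM values below also carry a scaling factor for each library (TMM), which ran from 0.953 to 1.12. The floor holds for counting error alone, as PCR copies of 1 molecule cannot be recognised. Replicates 1 and 2 lay apart from replicates 3 and 4 in both groups, on principal components that held 39.9% and 38.5% of the variance. No source names a batch behind this split, so it is called here the split of replicate numbers. The mitochondrial share of counts lay between 3.68% and 4.34% in BMDC and between 3.83% and 4.95% in BMDC-fer. Among 8 dendritic cell markers Itgax, which encodes CD11c, was at 787 to 1407 CPM in BMDC and at 748 to 1317 CPM in BMDC-fer. Itgax was thus high in every library, as was the macrophage marker Csf1r (714 to 1008 CPM in BMDC and 1055 to 1216 CPM in BMDC-fer). The other dendritic cell markers did not all stay level. Over all 8 the median log2 difference, BMDC-fer minus BMDC, was -1.35, against 0.48 over 8 macrophage markers and 0.00 over all tested genes.

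Of the members, 6 lie together on chromosome 5, in the order Cxcl5, Ppbp, Pf4, Cxcl3, Cxcl1 and Cxcl2, all on the plus strand (GENCODE M21 on GRCm38, which is mm10). Cxcl5 spans chr5:90759360-90761624, Ppbp chr5:90768518-90770063 and Pf4 chr5:90772435-90773383. Cxcl3 spans chr5:90786103-90789600, Cxcl1 chr5:90891241-90893115 and Cxcl2 chr5:90903871-90905938. Cxcl14 lies at chr13:56288643-56296551 and Cxcl16 at chr11:70453983-70459984, both on the minus strand. The sequence just upstream of the start is shown for the 5 chromosome 5 genes with a RefSeq promoter, because these neighbours fell into separate patterns across the libraries. The sequences come from RefSeq on GRCm38.p6, plus strand, 5′ to 3′, and begin 120 bases before the RefSeq start. Bases that GENCODE counts as exon were left off at the right end for Cxcl1 (4 bases) and Cxcl2 (28 bases). Capitals mark matches to the NF-kB (kappaB) motif (GGG, any 2 bases, then TTTCC) on either strand and to the TATA motif TATAAA.
Cxcl1 (chr5:90891125-90891240): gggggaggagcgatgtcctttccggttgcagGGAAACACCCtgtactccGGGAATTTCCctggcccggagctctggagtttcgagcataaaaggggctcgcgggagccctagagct
Cxcl2 (chr5:90903779-90903870): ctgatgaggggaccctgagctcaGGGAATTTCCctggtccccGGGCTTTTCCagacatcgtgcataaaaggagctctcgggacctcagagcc
Cxcl3 (chr5:90785981-90786100): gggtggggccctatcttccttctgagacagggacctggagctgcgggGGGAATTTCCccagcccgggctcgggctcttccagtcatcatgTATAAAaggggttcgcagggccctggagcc
Ppbp (chr5:90768398-90768517): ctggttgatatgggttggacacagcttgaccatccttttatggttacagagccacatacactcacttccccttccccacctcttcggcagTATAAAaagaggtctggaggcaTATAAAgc
Pf4 (chr5:90772315-90772434): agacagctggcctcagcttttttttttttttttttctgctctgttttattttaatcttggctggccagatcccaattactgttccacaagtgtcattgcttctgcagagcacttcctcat

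In the 250 bases before the start, Cxcl3 held 1 kappaB match, 73 to 64 bases upstream. Cxcl1 held the same letters at 71 to 62 bases and a second match on the minus strand at 89 to 80 bases. Cxcl2 held matches at 97 to 88 and at 78 to 69 bases. The windows of Ppbp, Pf4 and Cxcl14 held no kappaB match. Of 32851 RefSeq promoters of this length, 1.41% held one. Further motifs were searched on both strands. The AP-1 motif TGANTCA matched once, 204 to 198 bases before the start of Ppbp, and was present in 6.75% of promoters. The PU.1 motif GAGGAAGT matched once, on the minus strand 10 to 3 bases before the start of Pf4, and was present in 2.44%. The TATA motif, found in 12.4% of promoters, matched in Cxcl3 at 30 to 25 bases and in Ppbp at 30 to 25 and at 8 to 3 bases. The GATA motif AGATAA, found in 9.99%, matched in none of the 6 windows searched. No match overlapped another. A match describes these letters only and is not evidence that a factor bound there. Promoter windows of Cxcl5 and Cxcl16 were not analysed here.

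In the 3′ untranslated regions, the pentamer ATTTA, the core of the AU-rich element, occurred 7 times in the 592 bases of Cxcl1, 11 times in the 1494 bases of Cxcl2 and 5 times in the 645 bases of Cxcl3. These are 11.8, 7.36 and 7.75 per kb, against a median of 1.22 per kb over 20962 genes. Cxcl1 had the longer form TATTTAT 6 times, Cxcl2 7 times and Cxcl3 2 times, a form present in 27.5% of genes. Cxcl5 had 5 ATTTA in 1111 bases, which is 4.5 per kb. Ppbp had 1 in 656 bases and Cxcl16 had 2 in 1421 bases, close to the median at 1.52 and 1.41 per kb. Pf4 had 1 in a region of only 123 bases, which is 8.13 per kb and so as dense as in Cxcl2 and Cxcl3, with no TATTTAT, and Cxcl14 had 0 in 1149 bases.

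Ppbp was higher in every BMDC-fer library than in every BMDC library. It was at 31.4, 19.9, 16.3 and 13.1 CPM in BMDC replicates 1 to 4. In BMDC-fer replicates 1 to 4 it was at 124, 103, 50.4 and 63.9 CPM. The lowest BMDC-fer library thus lay above the highest BMDC library. The means were 20.2 ± 7.98 and 85.4 ± 34.2 CPM (SD, n = 4 libraries each), a 4.23-fold difference. The fitted log2 difference was 2.08 (SE 0.35), and it was nearly the same in the first replicate set (2.15 for numbers 1 and 2) as in the second (1.95 for numbers 3 and 4). Within single replicate numbers the log2 ratio ran from 1.63 in replicate 3 to 2.38 in replicate 2. By size Ppbp was number 14 of the 534 genes called higher. The RNA is from bulk cells, in which a change in the number of cells of a type and a change in RNA per cell cannot be told apart. These values chose the members, so they are given as a description and no p is printed for any member in this comparison.

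Pf4, the neighbour of Ppbp, was also higher in every BMDC-fer library. It was at 175, 168, 173 and 147 CPM in BMDC and at 517, 534, 280 and 356 CPM in BMDC-fer. The BMDC libraries hardly differed among themselves, with a mean of 166 ± 12.8 CPM. The BMDC-fer mean was 421 ± 124 CPM, which was 2.54-fold higher, with replicates 1 and 2 above replicates 3 and 4. The log2 difference was 1.35 (SE 0.21) over all libraries. It was 1.61 within replicates 1 and 2 but 0.99 within replicates 3 and 4.

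Cxcl5 was the scarcest member by mean and showed the same direction. Its raw counts were 7, 10, 16 and 14 in BMDC and 105, 28, 31 and 39 in BMDC-fer. This corresponds to 0.161, 0.211, 0.378 and 0.349 CPM against 2.12, 0.685, 0.743 and 1.02 CPM. The groups did not overlap, and the mean was 4.16-fold higher in BMDC-fer, but replicate 1 of BMDC-fer alone supplied the highest value. The log2 difference was 2.06 (SE 0.47), at 2.91 within replicates 1 and 2 but 1.27 within replicates 3 and 4. At the count minimum of 10 used here, BMDC alone did not meet the filter, and Cxcl5 passed it only through BMDC-fer. Under a stricter count minimum of 50 the gene was no longer tested.

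**Figure D1:**
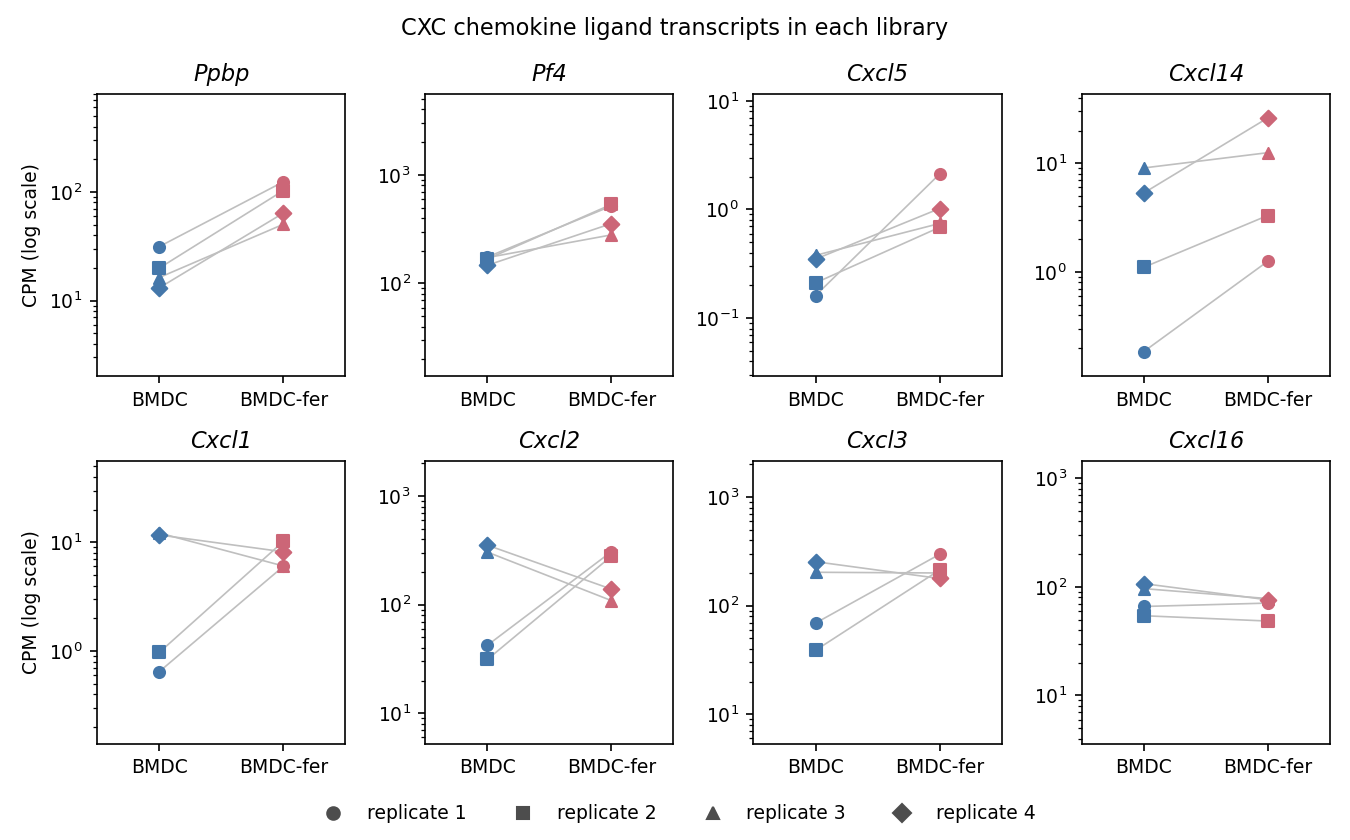
CPM of each of the 8 ligand transcripts on a log axis of equal span, with BMDC (blue) and BMDC-fer (red) libraries, the marker shape giving the replicate number and grey lines joining equal numbers. Ppbp, Pf4 and Cxcl5 sit higher in every BMDC-fer library, whereas the lines of Cxcl1 and Cxcl2 cross.

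Cxcl1, Cxcl2 and Cxcl3 had no single direction across the replicate sets. Their fitted differences were above 0 in replicates 1 and 2 and below 0 in replicates 3 and 4. This was found for 3063 of the 15411 tested genes, which is 19.9%. The untreated libraries differed widely for these genes, and for Cxcl2 the BMDC-fer libraries did too. Cxcl1 was at 0.645, 0.969, 12.2 and 11.7 CPM in BMDC replicates 1 to 4 and at 6.01, 10.2, 6.06 and 8.19 CPM in BMDC-fer. BMDC replicates 3 and 4 were thus 14.8-fold above BMDC replicates 1 and 2, while the BMDC-fer libraries stayed within a narrow range. In replicates 1 and 2 Cxcl1 was 10.0-fold higher in BMDC-fer, and in replicates 3 and 4 it was 1.68-fold higher in BMDC. The fitted log2 difference over all libraries was 0.26 with an SE of 0.84.

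Cxcl2 crossed further. It was at 42.3, 31.3, 305 and 353 CPM in BMDC and at 308, 280, 109 and 139 CPM in BMDC-fer. BMDC replicates 3 and 4 exceeded BMDC replicates 1 and 2 by 8.94-fold, whereas in BMDC-fer replicates 1 and 2 were the higher ones. Its log2 difference was 3.00 within replicates 1 and 2 but -1.41 within replicates 3 and 4, and 0.19 (SE 0.76) over all. A fitted difference of 1 or more in the first set together with -1 or less in the second was found for 51 of the 15411 tested genes, which is 0.331%. Among the members Cxcl2 alone met this description, which was set after its values were known.

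Cxcl3 followed Cxcl1 and Cxcl2 in BMDC but less steeply. It was at 69.1, 38.8, 203 and 254 CPM in BMDC and at 297, 213, 200 and 178 CPM in BMDC-fer. In replicates 1 and 2 BMDC-fer was 4.73-fold higher, and in replicates 3 and 4 BMDC was 1.21-fold higher, its lower library (203 CPM) lying just above the higher BMDC-fer library (200 CPM). The overall log2 difference was 0.65 (SE 0.52). Cxcl2 and Cxcl3 share sequence, with 61 words of 50 bases in common, or 3.37% of those of Cxcl2 and 6.31% of those of Cxcl3. How reads that map to both were counted is not given in the sources used here. In BMDC, both replicates 3 and 4 lay above both replicates 1 and 2 for all 3 genes, an order that 39.3% of tested genes had. A fitted log2 difference of 2 or more between these pairs of BMDC libraries was found for 2.33% of tested genes and for Cxcl1 (3.88), Cxcl2 (3.16) and Cxcl3 (2.08).

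**Figure D2:**
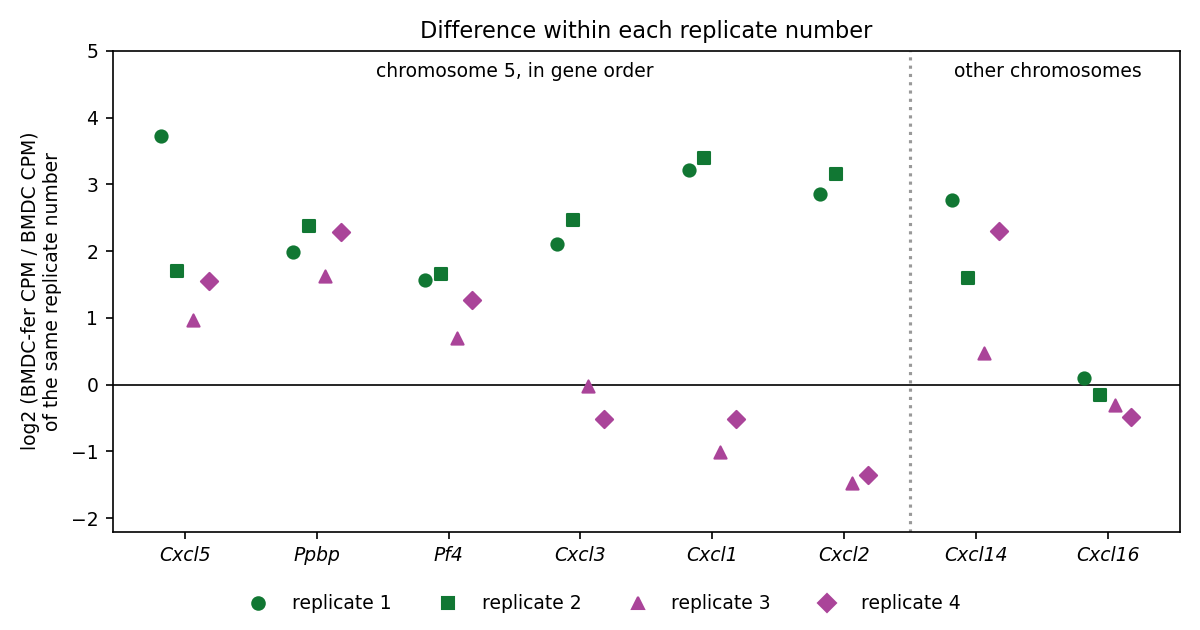
Log2 ratio of BMDC-fer to BMDC CPM within each replicate number, for the 6 chromosome 5 genes in gene order and the 2 members elsewhere, with green for replicates 1 and 2 and purple for replicates 3 and 4. All ratios of Cxcl5, Ppbp and Pf4 lie above 0, while those of Cxcl3, Cxcl1 and Cxcl2 are above 2 in replicates 1 and 2 and below 0 in replicates 3 and 4.

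Cxcl14 varied more between replicate numbers than between groups. It was at 0.184, 1.10, 9.04 and 5.31 CPM in BMDC and at 1.25, 3.30, 12.5 and 26.1 CPM in BMDC-fer. The groups overlapped, yet BMDC-fer was above BMDC in each of the 4 replicate numbers, by log2 ratios of 2.77, 1.59, 0.47 and 2.30. The fitted log2 difference was 1.47 (SE 1.13), and 1.66 (SE 0.38) with the replicate number as a block. Cxcl14 was not called without the block and was called with it. With 1 library left out and no block, the difference ran from 0.55 (without BMDC-fer replicate 4) to 2.30 (without BMDC replicate 3).

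Cxcl16 differed little. It was at 65.9, 54.2, 96.3 and 107 CPM in BMDC and at 70.8, 48.4, 77.9 and 75.9 CPM in BMDC-fer, and the groups overlapped. The fitted log2 difference was -0.24 (SE 0.24). Of its 3021 exonic bases, 552 are shared with Zmynd15 on the opposite strand, and whether strand was used in counting is not given in the sources used here. Zmynd15 itself had 98 to 341 counts per library.

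Counted together, 3 of the 8 members (Ppbp, Pf4 and Cxcl5) were called, all higher in BMDC-fer. Of these, Cxcl5 passed the filter on low counts only through its BMDC-fer libraries. A call needed a log2 difference of at least 0.58 in size with an adjusted p no larger than 0.05. Over all tested genes 3.47% were called higher and 5.91% lower, or 9.38% in all. The groups did not overlap for the same 3 members, against 11.3% of tested genes with every BMDC-fer library higher. With the replicate block, Cxcl14 made it 4 of 8, and over all tested genes 4.85% were then called higher and 8.13% lower, or 13.0% in all. DESeq2 called the same 3 members, with 4.89% of its 18180 tested genes higher and 8.39% lower, or 13.3% in all. The median log2 difference was 1.00 over the members and 0.00 over all tested genes. Since the comparison itself chose Ppbp, nothing is read from these counts. Ppbp and Pf4 kept their calls in all 8 fits with 1 library left out. Cxcl5 lost its call without BMDC replicate 1, BMDC replicate 2, BMDC replicate 4 or BMDC-fer replicate 4, with log2 differences between 1.57 and 2.25 over the 8 fits. The sign for Cxcl1 (-0.11 to 0.79) and Cxcl2 (-0.15 to 0.73) depended on which library was left out, and Cxcl3 ran from 0.35 to 1.10.

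Levels were compared between genes per exon length, as TPM, that is counts per base of exon scaled to the same total in each library, computed here. Pf4 was the most abundant member in both groups, at 564 ± 96.7 TPM in BMDC and 1303 ± 341 TPM in BMDC-fer (SD, n = 4). In BMDC it was followed by Cxcl2 (198 ± 175 TPM), Cxcl3 (92.1 ± 60.5 TPM), Cxcl16 (63.5 ± 12.3 TPM) and Ppbp (46.7 ± 22.0 TPM), whose ranges overlapped from each to the next. Cxcl1 (7.56 ± 7.39 TPM), Cxcl14 (4.79 ± 4.84 TPM) and Cxcl5 (0.349 ± 0.0995 TPM) were lower, with overlap between neighbours, and Cxcl1 (at most 14.4 TPM) lay below Ppbp (at least 26.4 TPM). Pf4 lay above Cxcl2 in every BMDC library, since its lowest value was 443 TPM and the highest of Cxcl2 was 371 TPM.

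In BMDC-fer Ppbp moved up to 176 ± 65.4 TPM, between Cxcl2 (224 ± 101 TPM) and Cxcl3 (142 ± 30.3 TPM), and these 3 overlapped. Cxcl16 (51.0 ± 11.5 TPM) was below all of them without overlap. Cxcl14 (13.6 ± 14.4 TPM) and Cxcl1 (9.10 ± 2.24 TPM) overlapped. Cxcl5 (1.37 ± 0.78 TPM) was last by mean, but its range (0.795 to 2.5 TPM) overlapped that of Cxcl14 (1.51 to 33.1 TPM). The order depends on the length used. With the longest protein-coding transcript in place of all exons, an alternative chosen after seeing the data, Cxcl3 passed Cxcl2, at 243 TPM in BMDC and 377 TPM in BMDC-fer. In BMDC-fer Cxcl1 then also passed Cxcl14, and Pf4 stayed first and Cxcl5 last.

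Because Ppbp and Pf4 are platelet products, 12 platelet and megakaryocyte markers were read in the same libraries. Gp1bb had no count in any library, and Gp5, Gp6, Gp9 and Gata1 had at most 9 counts. In all, 6 of the 12 passed the filter and were tested. The summed level of the 12 was 15.6 to 45.0 CPM in BMDC and 20.8 to 48.9 CPM in BMDC-fer, ranges that overlap. Of the 6 tested markers 2 were called, in opposite directions, against 9.38% of all tested genes called. Itga2b, the platelet integrin alpha chain, fell by 1.82 on the log2 scale (SE 0.33, adjusted p = 0.0124). All adjusted p-values come from edgeR's quasi-likelihood fit over all tested genes, adjusted after Benjamini and Hochberg. Tubb1, the platelet beta-tubulin, rose by 1.24 (SE 0.32, adjusted p = 0.0414) at a level of 0.249 to 1.07 CPM, and with 1 library left out its call held only without BMDC replicate 2 (adjusted p of 0.0564 to 0.11 in the other 7 fits). Clec1b and Treml1, which were at 3.55 to 14.7 and 1.54 to 4.32 CPM in BMDC and at 12.1 to 31.2 and 3.77 to 6.44 CPM in BMDC-fer, were called higher only with the replicate block (adjusted p = 0.0144 and 0.0474). The median log2 difference of the 6 tested markers was 0.11. Gp1ba, a subunit of the platelet receptor for von Willebrand factor, was tested and not called, at 0.569 to 1.22 CPM in BMDC and 0.343 to 0.759 CPM in BMDC-fer (log2 difference -0.54, adjusted p = 0.332). The part of platelets or megakaryocytes in the levels of Ppbp and Pf4 was not tested.

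**Figure D3:**
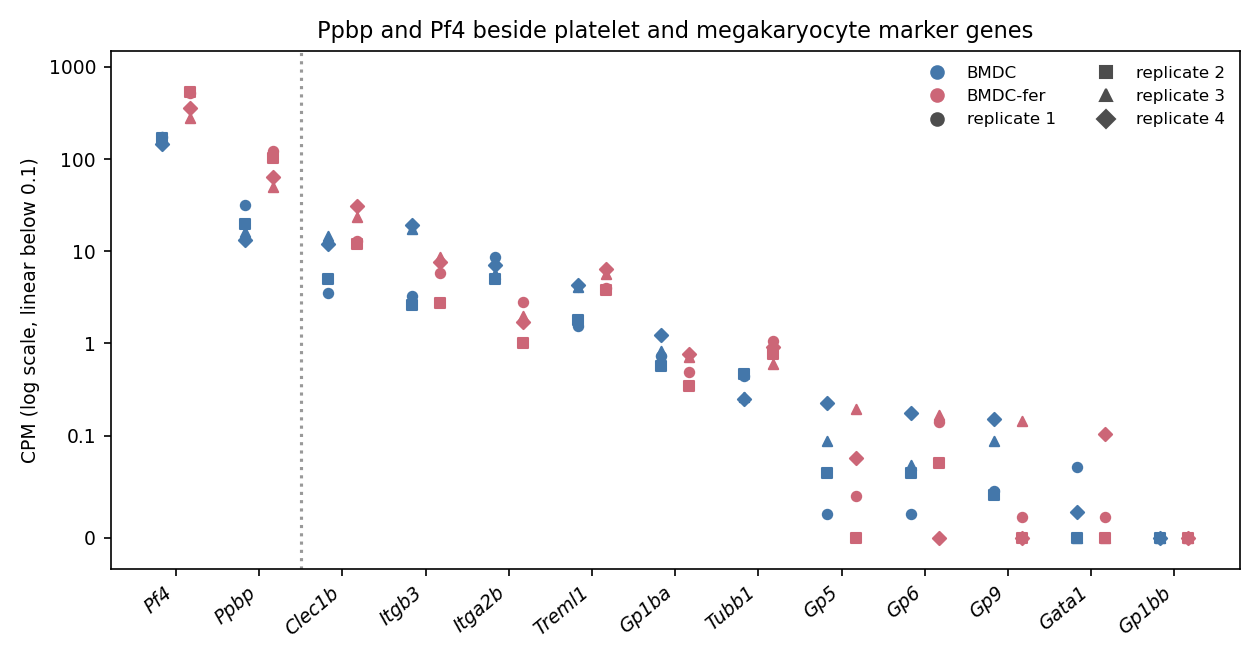
CPM of Pf4 and Ppbp (left of the dotted line) and of 11 platelet and megakaryocyte markers in each BMDC (blue) and BMDC-fer (red) library, on a log axis that turns linear below 0.1 CPM. The marker with the highest level, Clec1b, reaches 31.2 CPM, and 5 of those shown stay below 0.3 CPM in every library.

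Markers of other cells moved with the groups, and their part in the ligand values was not tested. Of 10 neutrophil markers, 5 were called lower (Ly6g, the neutrophil surface antigen, S100a9, Ngp, Elane and Retnlg), from Ly6g at -2.75 (SE 0.74, adjusted p = 0.0448) to Retnlg at -4.14 (SE 0.78, adjusted p = 0.0143). With the block it was 9 of 10. Over all tested genes 5.91% were called lower, and 8.13% with the block. The sum of the list, 607 to 1247 CPM in BMDC and 727 to 1463 CPM in BMDC-fer, was carried by Mmp8 (log2 difference 0.50, adjusted p = 0.393). Without BMDC-fer replicate 4 none of them was called by edgeR, Retnlg being at an adjusted p of 0.0546. Retnlg held its call in the other 7 fits with 1 library left out, whereas Ly6g, S100a9, Ngp and Elane lost theirs in 5 to 7 of the 8. The values of Ly6g were at most 1.92 CPM.

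Of 8 macrophage markers only Adgre1, which encodes F4/80, was called, at -0.81 (SE 0.14, adjusted p = 0.0119), and the sum was 1925 to 3188 CPM in BMDC and 2474 to 4062 CPM in BMDC-fer. Of 8 dendritic cell markers Flt3 (-4.06, adjusted p = 0.00207) and Irf4 (-1.42, adjusted p = 0.0193) were called lower, and 6 with the block, with sums of 7560 to 17624 and 3421 to 8598 CPM. Irf4 lost its call without BMDC-fer replicate 3 or 4 (adjusted p of 0.0544 to 0.0663). Beside these macrophage and dendritic cell counts, 5.91% of all tested genes were called lower, and 8.13% with the block. Of 8 mast cell and basophil markers 3 were tested and none was called by edgeR, with 2 at an unadjusted p under 0.05, while DESeq2 called 4 lower and edgeR with the block 1. Their sum was 33.5 to 65.2 CPM in BMDC and 14.6 to 33.0 CPM in BMDC-fer.

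Since the cargo was a T-cell line, 10 mouse T-cell markers were also read. Trac, Trbc1 and Trbc2 had at most 3 counts in any library. Of the 10 markers 3 were tested and 1 was called, against 9.38% of all tested genes. Lck was called lower (-1.59, SE 0.44, adjusted p = 0.0482) at 0.461 to 1.40 CPM in BMDC and 0.196 to 0.407 CPM in BMDC-fer, and with 1 library left out it held that call only without BMDC replicate 1 or 2 (adjusted p of 0.0723 to 0.126 otherwise). Cd28 carried most of the sum of 29.7 to 43.1 CPM in BMDC and 29.3 to 53.9 CPM in BMDC-fer.

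The other 9 ligands of the CXC, XC and CX3C classes were mostly silent. Cxcl13 and Cxcl17 had 0 counts in all libraries, Cxcl15 and Xcl1 had at most 1, and Cxcl11 and Cxcl12 had at most 6 and 9. Of the 3 that were tested, 1 was called, lower (5.91% of all tested genes were). This was Cx3cl1, the membrane-bound fractalkine, at 23.9, 19.5, 13.1 and 15.0 CPM in BMDC and 9.45, 5.83, 4.05 and 4.61 CPM in BMDC-fer. Its groups did not overlap, and it fell by 1.58 on the log2 scale (SE 0.30, adjusted p = 0.0154). Without BMDC-fer replicate 4 the adjusted p was 0.0575.

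Cxcl10, an interferon-induced ligand of Cxcr3, was called only with the replicate block. It was at 15.1, 17.2, 2.53 and 2.52 CPM in BMDC and at 19.7, 54.1, 4.10 and 5.78 CPM in BMDC-fer. Its log2 difference was 1.16 (SE 0.93, adjusted p = 0.431) without and 0.98 (SE 0.23, adjusted p = 0.0397) with the replicate block. Without BMDC-fer replicate 2, its highest library, the fit without the block gave 0.07 (adjusted p = 0.966), and the 7 other fits with 1 library left out gave 0.85 to 1.65. Unlike Cxcl1 and Cxcl2, it was low in BMDC replicates 3 and 4. Cxcl9, which is also interferon-induced, was at 0.4 CPM or less (log2 difference -0.15, adjusted p = 0.93). The median log2 difference of the 3 tested ligands was -0.15.

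The receptors of these ligands were scarce in the same cells. Of 8 receptors, 2 passed the filter and neither was called by edgeR, with 0 at an unadjusted p under 0.05, while DESeq2 called Cxcr5 lower among the genes it tested. Cxcr2, the receptor for the neutrophil-attracting members, was at 0.249 to 2.28 CPM in BMDC and 0.147 to 0.688 CPM in BMDC-fer (log2 difference -1.29, SE 0.69, adjusted p = 0.239). Cxcr4, the receptor for Cxcl12, was at 19.1, 24.6, 35.6 and 33.1 CPM in BMDC and 14.5, 18.6, 51.4 and 43.5 CPM in BMDC-fer (0.19, SE 0.41, adjusted p = 0.787). The median of these 2 log2 differences was -0.55. Cxcr6, the receptor for Cxcl16, had at most 14 counts, Cxcr3 at most 14, Cxcr5 at most 26 and Ackr3 at most 39. Cxcr1 and Ackr1 were at or below the floor.

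Of 16 cytokines, receptors and adaptors known to induce the neutrophil-attracting ligands, 14 were tested. Of these, 2 were called, both higher (3.47% of all tested genes were called higher). These were the receptors for TNF. Tnfrsf1b rose by 0.81 (SE 0.19, adjusted p = 0.0272), from 146 to 263 CPM in BMDC to 329 to 383 CPM in BMDC-fer, and Tnfrsf1a by 0.58 (SE 0.13, adjusted p = 0.0237), right at the fold threshold. With 1 library left out, Tnfrsf1b held its call only without BMDC replicate 1 or 2, and Tnfrsf1a only without BMDC replicate 1, BMDC replicate 2 or BMDC-fer replicate 1. The adjusted p was between 0.055 and 0.0769 in the other fits. Tnf itself was at 79.5, 56.0, 20.1 and 20.7 CPM in BMDC and at 163, 126, 48.6 and 54.2 CPM in BMDC-fer, higher in each replicate number. Its log2 difference was 1.15 (SE 0.55, adjusted p = 0.197), and 1.22 (SE 0.10, adjusted p = 0.00445) with the block.

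Il1a, the interleukin-1 alpha gene, changed direction between the replicate sets, as Cxcl1 to Cxcl3 did. It was at 28.4, 28.1, 89.6 and 98.1 CPM in BMDC and at 108, 108, 47.5 and 58.2 CPM in BMDC-fer, with log2 differences of 1.94 in replicates 1 and 2 but -0.83 in replicates 3 and 4. Over all libraries the value was 0.40 (SE 0.48, adjusted p = 0.602). This order, above 0 in the first set and below 0 in the second, was found for 19.9% of tested genes. In the same list Il1b, Il6 and Tlr2 had it too. Il1a was singled out after its values were seen. The list's median log2 difference was 0.19.

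Of 12 transcription factors that act on genes of this class, all tested, 2 were called higher and 2 lower. The shares over all tested genes were 3.47% higher and 5.91% lower. Egr1, an immediate-early factor, rose by 1.07 (SE 0.29, adjusted p = 0.0437) and Jun, a subunit of AP-1, rose by 0.70 (SE 0.16, adjusted p = 0.0288). Rel fell by 2.06 (SE 0.40, adjusted p = 0.0160) and Nfkb1 fell by 0.69 (SE 0.19, adjusted p = 0.0470); both encode NF-kB subunits. Rel was at 101, 98.8, 282 and 260 CPM in BMDC and at 61.8, 47.5, 32.6 and 36.5 CPM in BMDC-fer. Within BMDC, replicates 3 and 4 were the highest for Rel, Cxcl1 and Cxcl2, an order that 39.3% of tested genes had. A link between Rel and these ligands was not tested. Rel lost its call without BMDC-fer replicate 4 alone (adjusted p = 0.0593), whereas Egr1 and Jun held theirs only without BMDC replicate 4, and Nfkb1 only without BMDC-fer replicate 1 (adjusted p between 0.0518 and 0.127 in the other fits).

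Rela, the main activating NF-kB subunit, was at 79.7 to 99.3 CPM in BMDC and 71.2 to 80.3 CPM in BMDC-fer (-0.26, adjusted p = 0.113). Nfkbiz, the inducible NF-kB cofactor, had log2 differences of 0.34 in replicates 1 and 2 but -2.25 in replicates 3 and 4 (-0.95 over all, adjusted p = 0.187). Nfe2l2, which encodes NRF2, was called only with the block (0.63 and adjusted p = 0.0802 without, 0.67 and adjusted p = 0.0277 with it). The list's median log2 difference was -0.16.

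Of 8 factors that control the decay of AU-rich mRNAs, none was called by edgeR, with 3 at an unadjusted p under 0.05, and DESeq2 called Zfp36l1 lower. Zfp36l1 was at 104 to 193 CPM in BMDC and 85.7 to 100 CPM in BMDC-fer (-0.64, SE 0.18, adjusted p = 0.0554), and was called lower with the block (-0.60, adjusted p = 0.0377). Zfp36, which encodes tristetraprolin, was at 150 to 184 and 170 to 328 CPM (0.49, adjusted p = 0.166). The median log2 difference of the 8 was 0.03.

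**Figure D4:**
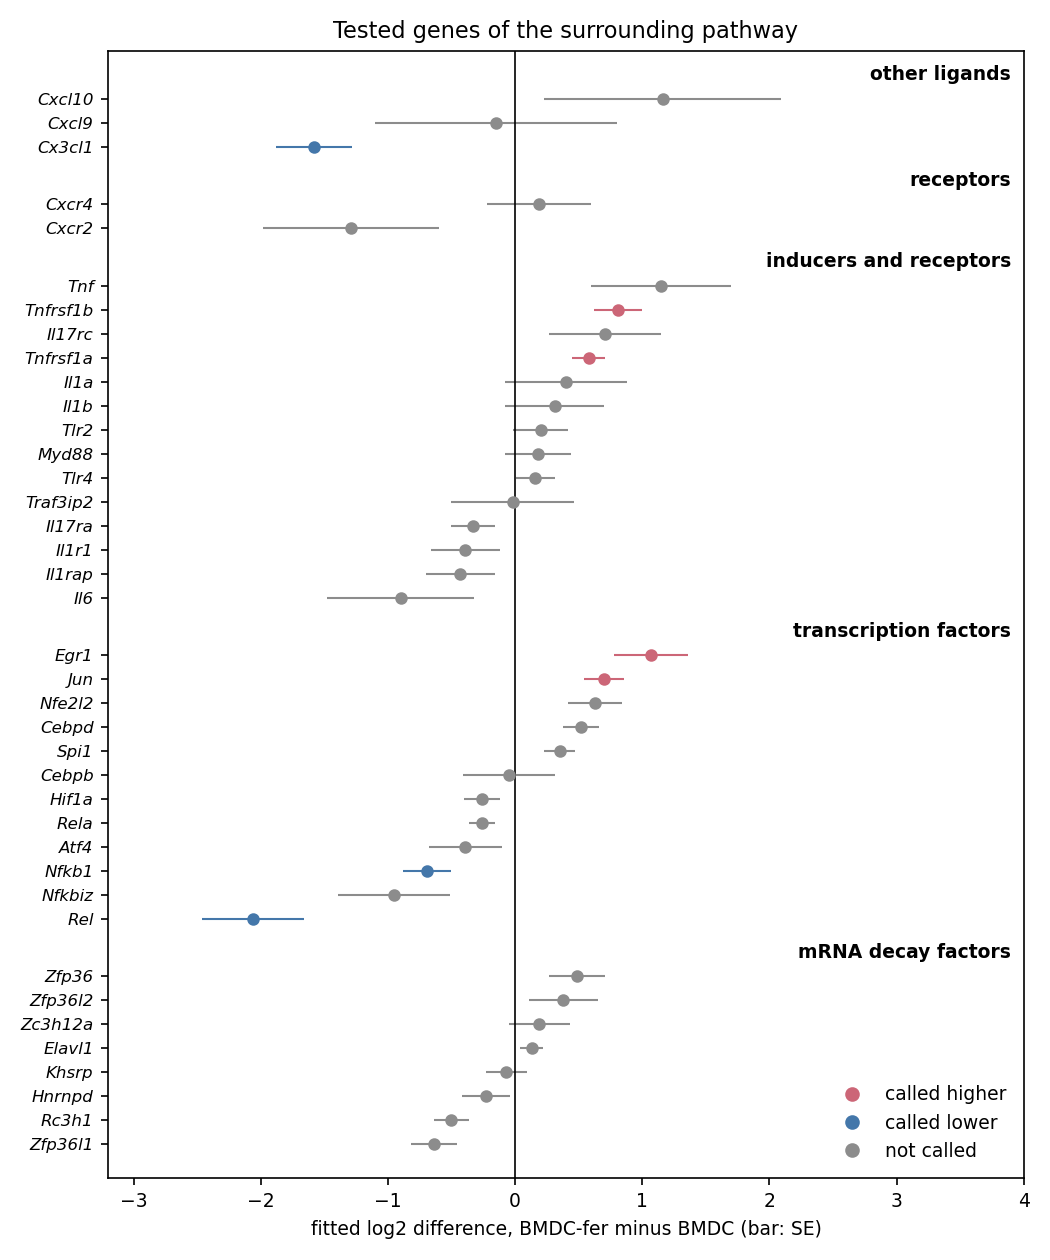
Fitted log2 difference, BMDC-fer minus BMDC, with its SE for each tested gene of 5 lists around the ligands (n = 4 libraries per group), red where called higher, blue where called lower and grey where not called. Tnfrsf1a, Tnfrsf1b, Jun and Egr1 lie on the higher side, and Cx3cl1, Rel and Nfkb1 on the lower side.

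Of 11 genes for shedding, cleavage or storage of these ligands, 10 were tested. Of these 1 was called, a share near the 9.38% of all tested genes. Dpp4, a peptidase that trims the amino terminus of many chemokines, was at 93.6, 58.9, 31.4 and 27.8 CPM in BMDC and at 13.8, 6.66, 2.11 and 2.04 CPM in BMDC-fer. It fell by 3.10 on the log2 scale (SE 0.70, adjusted p = 0.0259), with log2 differences of -2.89 in replicates 1 and 2 but -3.83 in replicates 3 and 4. The call was lost without BMDC-fer replicate 2, 3 or 4 (adjusted p of 0.0589 to 0.0699). Adam10, the main sheddase of Cxcl16, was at 141 to 180 CPM in BMDC and 156 to 222 CPM in BMDC-fer (0.32, adjusted p = 0.145), and Adam17 had a difference of 0.21 (adjusted p = 0.402). The median log2 difference of the list was 0.36, and its summed level, 3277 to 11681 CPM in BMDC and 6478 to 14850 CPM in BMDC-fer, was carried by Mmp12.

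Around the chromosome 5 cluster, 25 further annotated genes start within 500000 bases, and 4 of them were tested. Afp, the alpha-fetoprotein gene, was called higher (3.47% of all tested genes were). It was at 1.32 to 2.42 CPM in BMDC and 3.83 to 6.33 CPM in BMDC-fer (1.26, SE 0.26, adjusted p = 0.0196), and lost its call without BMDC replicate 3 or BMDC-fer replicate 4 (adjusted p of 0.0508 to 0.057). Mthfd2l (0.36, adjusted p = 0.326), Rassf6 (0.42, adjusted p = 0.659) and Gm9958 (1.01, adjusted p = 0.168) were not called. The growth factor genes Ereg and Areg had at most 6 and 27 counts. The median log2 difference of these 4 was 0.72.

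Likeness was read over 15303 tested genes that were not members and had a count in every library. Among them, the 5 whose log2 CPM followed Ppbp most closely over the 8 libraries were Ccdc86, Elp5, Psmc5, Nr1h3 and Mrpl17. Their Pearson r was 0.989 to 0.99. Among those that followed Cxcl14 most closely were Wdr60, Slc7a4, Itgb5 and Klra17, with r of 0.979 to 0.981. These are the highest of many values over 8 points that share 2 groups and the split of replicate numbers, so they are a description of likeness without a p.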

How the data were processed

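The authors deposited raw read counts per mouse gene for 4 BMDC and 4 BMDC-fer libraries, grouped here by their labels. The submitters' processing notes name CASAVA, HISAT2, featureCounts, DESeq2 and mm10, without versions. The annotation, strand setting and treatment of multiply mapped reads are not given in the sources used here. GENCODE M21 named 55227 of the 55487 identifiers, and RefSeq (GRCm38.p6) gave promoters for 6 of the 8 members.

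Counts were scaled by TMM and tested in R 4.3.3 with edgeR 4.0.16 (quasi-likelihood test, filterByExpr with a count minimum of 10, no block), and genes were called by the 2 thresholds given in the report. Values within replicate sets come from a fit of all libraries, and the difference between sets was not tested. The replicate block was tried because same-numbered libraries deviated together (r across genes of 0.446, 0.355, 0.313 and 0.343 for numbers 1 to 4). Libraries of different numbers in the same set did so too (0.186 to 0.38), and those of different sets deviated oppositely (-0.388 to -0.279), so the correlations reflect the sets as much as the numbers. The labels give no shared origin for a number. Library pairs within a group differed beyond sampling noise. The fits were also run on simulated counts. These held no split of replicate numbers, so they cannot show how the fits behave under it. Other settings were DESeq2 1.42.0, RLE and upper-quartile scaling, other count filters, no fold threshold and each library left out.

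The members and lists were chosen with earlier results of these data known. Named were all members, each list's called genes of largest and smallest difference, every tested ligand, receptor and chromosome 5 neighbour, and the 5 genes most like Ppbp and Cxcl14. Of these, 1 gene like Cxcl14 is not reported here, nor are the values of 1 platelet marker. Other genes were named after their values were seen.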

Additional observations from a re-analysis of the deposited data

How the results depend on the processing

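For 27 genes, 405 fitted differences were computed under alternatives. These genes were the members, every tested other ligand, receptor and chromosome 5 neighbour, and the largest called rise and fall of each further list. Of these differences 13 had the opposite sign, in Cxcl1, Cxcl2, Cxcl3, Cxcl9 and Cxcr4, none of them called. The 15 called genes among the 27 kept their sign throughout. Among the 27, calls were lost 41 times, in 10 genes, and gained 2 times, for Cxcl14 and Cxcl10 with the replicate block. These counts leave out the called genes Tnfrsf1a, Nfkb1, Jun, Irf4, S100a9, Ly6g, Ngp and Elane. Each of those also lost its call in some fits with 1 library left out, as given above. Values that moved by more than their spread were those of Cxcl1 (3.31), Cxcl2 (3.00), Cxcl3 (2.24) and Cxcl5 (2.91) in replicates 1 and 2 alone, Cxcl5 in replicates 3 and 4 alone (1.27), and the TPM of Cxcl3 in both groups and of Cxcl1 in BMDC-fer (13.8) with transcript length. Calls over all genes went from 1445 to 2414 of 18180 with DESeq2 (13.3%), and to 2000 (13.0%) with the replicate block.

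Called counts changed as follows. With the replicate block there were 2 other ligands, 1 mRNA decay factor, 6 dendritic cell, 9 neutrophil, 4 platelet, 1 mast cell and 2 T cell markers, and Cxcl14 among the members; beyond these and the genes named as called only with the block, it changed no other call reported. Transcription factors, 4 as reported, numbered 5 with the block, with DESeq2 or with no fold threshold and 3 without the filter. DESeq2 gave 1 receptor, 1 decay factor, 3 shedding genes, 4 dendritic cell, 9 neutrophil, 4 mast cell and 2 T cell markers. A count minimum of 50 gave 1 inducer, 1 decay factor, 2 neutrophil, 1 platelet and 0 T cell markers. Without the filter there were 2 shedding genes, 1 platelet, 1 mast cell and 0 T cell markers. RLE scaling gave 1 inducer, upper-quartile scaling 0 T cell markers, and no fold threshold 1 decay factor. The cause was not tested.

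With each library left out in turn, calls ranged from 565 (without BMDC-fer replicate 4) to 1440 over all genes, 2 to 3 for members, 0 to 1 for other ligands, receptors, decay factors, T cell markers and chromosome 5 neighbours, 0 to 2 for inducers, shedding genes and mast cell markers, 0 to 3 for transcription factors, 1 to 2 for dendritic cell, macrophage and platelet markers, and 0 to 7 for neutrophil markers. Depth limits Cxcl5, Cxcr2 and most receptors, whose counts were low.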
